A study of Mus musculus with 2 samples.

Results

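Scx-high tenocytes of the control library were examined here, cells of P7 limb tendons rich in transcript of Scleraxis (Scx), the basic helix-loop-helix transcription factor that marks tendon cells. Cells were chosen by an Scx count of at least 30 unique molecular identifiers (UMIs, 1 for each captured mRNA molecule) per 10,000 UMIs of the cell. In addition, members had the 4 haemoglobin genes Hba-a1, Hba-a2, Hbb-bs and Hbb-bt together under 10% of UMIs, fewer than 5 Col2a1 UMIs, fewer than 4 UMIs over the cycling genes Mki67, Top2a, Cdk1 and Birc5, and fewer than 5 UMIs over the immune genes Tyrobp, Fcer1g, Laptm5 and Ptprc. This rule found 757 of the 2364 cells of the control library, 32.0% (95% exact binomial interval 30.1 to 33.9). The 2 libraries of the series hold 4956 cells together.

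The control library is titled wild-type, while its description calls it Het, and the mutant library carries a floxed and a null allele of the TGF-beta type II receptor gene with the Cre recombinase driven by Scx (Tgfbr2 f/-;ScxCre). All mice also carried the ScxGFP reporter and the Cre reporter RosaT, a Rosa26 tdTomato allele. Not every tenocyte of the embryo has had Cre from ScxCre, and counts of Scx include transcripts of the ScxGFP transgene. Tendons of the fore- and hindlimbs of 2 pups were pooled for each library at P7, 7 days after birth, and captured with a 10x Genomics 3′ kit, so that there is 1 library per genotype. No spread between replicates can be measured, no test was run, every interval covers counting error only, and batch and genotype cannot be told apart. The libraries shared 2 cell barcodes, and none of them was a member.

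Tenocytes are the fibroblasts that lie between the collagen fibres of a tendon and make its matrix. In development Scx switches on early in their progenitors, and tenomodulin (Tnmd), a transmembrane glycoprotein, is the classical marker of differentiated tenocytes. The fibres are built of type I collagen, whose fibril width is adjusted by type V and type XI collagen and by small leucine-rich proteoglycans such as fibromodulin (Fmod), keratocan (Kera) and decorin (Dcn). TGF-beta signaling is known to recruit and maintain tendon cells. A tendon is wrapped by looser sheaths of other fibroblasts, rich in type III collagen.

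Besides Scx, the members carried the other 4 genes that mark tenocytes. At least 1 Tnmd UMI was found in 756 of the 757 cells, an Fmod UMI in 749, a Kera UMI in 692 and a UMI of Thbs4, the matrix protein thrombospondin 4, in 688. All 4 were found in 636 cells (84.0%), and 1 cell had none of them. A share of cells with a UMI depends on depth and on free RNA, so every cell was also thinned to 2000 UMIs, which left out 152 shallower members. At that depth Tnmd was found in 99.7% of 605 members, and in 19.6% of 112 immune cells of the same library, which should lack it. Median depth before thinning was 3705 UMIs in the members and 2417 in the immune cells. The same shares were 98.3% and 15.2% for Fmod, 86.9% and 5.36% for Kera, and 83.8% and 3.57% for Thbs4. The share in immune cells was thus far below that in the members for all 4 genes. Mkx, the homeobox factor Mohawk that is needed for tendon maturation, was found in 24.1% of thinned members and in 0 of the 112 immune cells, which with 3 counts as the limit of a count of 0 allows a share of up to 2.68% of cells with a UMI.

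The promoters of 3 of these markers are shown because Scx is a helix-loop-helix factor and such factors bind E-boxes, short sequences of the form CANNTG. Each sequence holds the 250 bases before the RefSeq start on GRCm38.p6, 5′ to 3′ on the strand of the gene, with E-boxes in capitals. They lie at chrX:133850758-133851007 on the plus strand for Tnmd, chr1:134037004-134037253 on the plus strand for Fmod and chr13:92794819-92795068 on the minus strand for Thbs4.
Tnmd: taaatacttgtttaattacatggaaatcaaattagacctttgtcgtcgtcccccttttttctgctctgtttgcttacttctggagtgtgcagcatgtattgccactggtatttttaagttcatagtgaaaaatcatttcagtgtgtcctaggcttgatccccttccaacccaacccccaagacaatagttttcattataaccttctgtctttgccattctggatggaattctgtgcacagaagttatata
Fmod: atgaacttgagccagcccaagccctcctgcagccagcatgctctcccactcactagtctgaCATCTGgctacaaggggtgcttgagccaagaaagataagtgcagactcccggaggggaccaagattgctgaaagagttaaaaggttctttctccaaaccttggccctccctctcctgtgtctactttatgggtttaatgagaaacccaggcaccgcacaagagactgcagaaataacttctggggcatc
Thbs4: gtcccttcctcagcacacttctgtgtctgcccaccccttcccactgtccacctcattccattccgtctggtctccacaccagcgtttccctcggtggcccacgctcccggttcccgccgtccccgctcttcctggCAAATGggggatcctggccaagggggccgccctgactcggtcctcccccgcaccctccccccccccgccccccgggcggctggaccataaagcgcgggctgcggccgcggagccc
CANNTG reads the same on both strands. It occurred once in the Fmod window, as CATCTG, once in the Thbs4 window, as CAAATG, and in the Tnmd window 0 times, while 66.2% of all 32851 promoter windows of this length held at least 1. A match is a description of these letters only.

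The Scx threshold fell in a trough. Among cells of the control library that met the other gates, Scx per 10,000 UMIs had a median of 220 in the members, with a lowest value of 30.7 and a highest value of 879. Only 16 members lay between 30 and 40 per 10,000, and 28 cells lay between 20 and 30, just outside. Those just inside held 66.2 Tnmd, 25.2 Fmod, 457 Col1a1 and 19.7 Col3a1 UMIs per 10,000 UMIs, and those just outside 84.1, 27.4, 316 and 63.0. From 100 to 200 per 10,000, where 235 members lay, the values were 81.0, 55.9, 754 and 7.17. Cells on both sides of the threshold thus had less Fmod and Col1a1 and more Col3a1 than these members, at a Tnmd level near theirs.

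**Figure D1:**
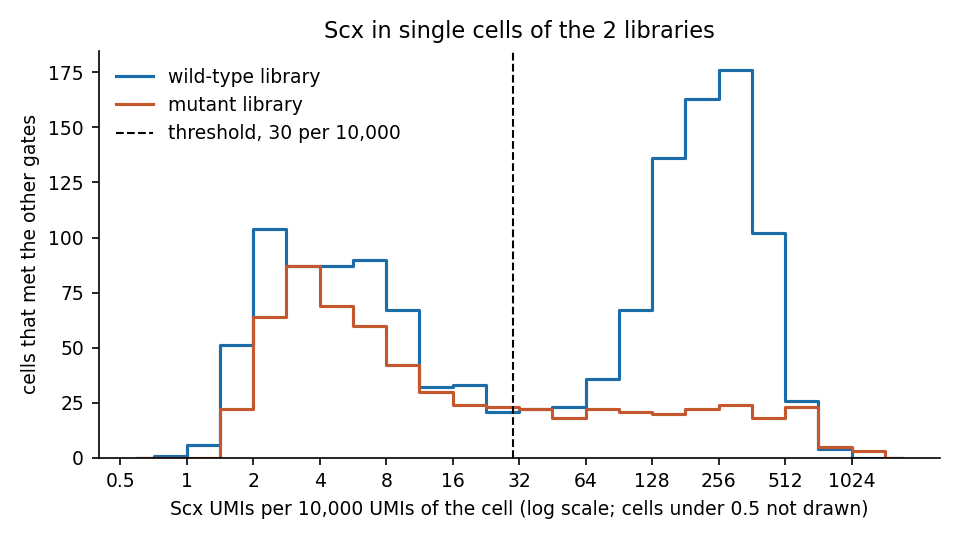
Number of cells (y axis) by Scx UMIs per 10,000 UMIs of the cell (x axis, log scale) in the wild-type and the mutant library, for cells that met the haemoglobin, Col2a1, cycling and immune gates. The wild-type library has a second peak between 181 and 362 per 10,000, right of the dashed threshold, while the mutant library has none; 282 wild-type and 1581 mutant cells under 0.5 per 10,000 are not drawn.

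The gates on other cell types were met by most, but not all, of the cells with this much Scx. Of 1178 such cells, 371 failed the Col2a1 gate with 5 or more UMIs, 59 failed the cycling gate, 12 the immune gate and 1 the haemoglobin gate. Defining markers of several other cell types were near 0 in the members, which for the immune and cycling genes the gates fix in part. The 6 blood markers, which the haemoglobin gate limits in part, summed to 287 CPM. Of these, Hbb-bs was at 174 CPM, beside 171 in immune cells. The 10 immune markers, among which the gate genes are counted, summed to 32.8 UMIs per 1000000 UMIs (CPM), of which Lyz2 gave the most, the 8 endothelial markers to 15.3 CPM and the 9 skeletal muscle markers to 8.91 CPM. Cdh5, Myod1, Pax7, Myf5, Sox10, Sp7, Ibsp and the 6 epithelial markers had 0.357 CPM or less. The 9 pericyte and smooth muscle markers summed to 558 CPM, most of it Acta2, at 380 CPM. Of the 1067 Acta2 UMIs, 488 came from 7 cells with 10 or more each, and these cells also held 21 Myh11 and 24 Rgs5 UMIs and 4210 CPM of Tnmd.

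A few matrix genes took a large part of all transcripts. Col1a1 (chr11:94936224-94953042) was the most abundant gene at 72149 CPM, followed by Sparc (chr11:55394500-55423183), a collagen-binding matricellular protein, at 54160 CPM and Col1a2 (chr6:4504814-4541544) at 45151 CPM. All coordinates of genes are GENCODE M21 on GRCm38. Scx itself (chr15:76457452-76459458) followed at 25446 CPM, then Dcn at 13325 CPM and the lectin gene Lgals1 at 11137 CPM. Tnmd (chrX:133850980-133865577) stood at 7704 CPM, the secreted peptide gene 1500015O10Rik (chr1:43730602-43742578) at 7227 CPM and Fmod (chr1:134037254-134048277) at 5333 CPM. The 15 most abundant genes took 27.9% of all UMIs of the members. A 3′ tag count does not depend on the length of the transcript, but genes can be captured and annotated unequally, so an order of levels between genes is a rough one.

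Col1a1 and Col1a2 together gave 11.7% of all UMIs, and the 11 fibrillar collagen genes 12.2%. In single cells the type I collagen genes took a median of 12.04% of UMIs, the lower quartile was 9.40%, and the extremes were 0.219% and 43.3%. Every member had at least 1 UMI of both genes. Genes for collagen synthesis and processing took 1.54% of UMIs, led by the procollagen C-proteinase enhancer Pcolce at 4587 CPM and the collagen chaperone Serpinh1 at 3956 CPM. Small leucine-rich proteoglycan genes took 2.31%. Mitochondrial transcripts took 0.523%.

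The question of what sets these cells apart within the same tendons was put by a comparison with 605 Scx-low fibroblasts of the same library. Those had Scx under 10 per 10,000 UMIs, met the same gates, had at least 20 UMIs per 10,000 over the fibroblast genes Lum, Col3a1, Dpt, Pdgfra and Mfap5, and were low in endothelial and pericyte genes. Their median depth, 3654 UMIs, was close to the 3705 of the members. Both sets come from 1 library, so any difference is a difference between cell sets with counting error only. The choice of fibroblasts used their Scx, Lum, Col3a1, Dpt, Pdgfra and Mfap5, so the ratios of these genes are a description. Genes were tested where cells of either set averaged 0.5 UMI or more, and of 1325 such genes 106 (8% of those tested) were at least 2-fold higher in the Scx-high tenocytes and 242 (18.3%) at least 2-fold lower. The median gene was lower in the members by a log2 ratio of -0.32. A gene rare in 1 set could pass the limit of 0.5 UMI through the other set alone. Counts over gene lists here and below are therefore descriptions. With a total that omitted the 20 top genes of both sets, 165 genes were higher and 177 lower, and with ratios centred on the median gene 164 and 177.

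All 4 markers not used by the rule were higher in the tenocytes. Fmod was at 5333 CPM against 179, a ratio of 29.7 (26.9 to 32.9), and Tnmd at 7704 against 606, a ratio of 12.7 (12.05 to 13.4). Kera (chr10:97606879-97613692) was at 1509 against 207 CPM, a ratio of 7.28 (6.62 to 8.02), and Thbs4 (chr13:92751590-92794818) at 1225 against 240 CPM, a ratio of 5.10 (4.66 to 5.59). Immune cells held 196 CPM of Tnmd and 156 CPM of Fmod, beside 179 CPM of Fmod in the Scx-low fibroblasts. In single cells the median Tnmd level was 70.2 per 10,000 UMIs in the members and 0 in the Scx-low fibroblasts, whose highest cell reached 231, so the ranges overlapped.

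Factors that control transcription differed in both directions. Of the 16 listed tendon transcription factors 7 were abundant enough, and Scx, which chose both sets, is left out of their count. Of the other 6, 1 was at least 2-fold higher, 4 were lower and 1 was within 2-fold, with a median log2 ratio of -1.33 beside -0.32 for all genes tested. The higher one was Creb3l1, a membrane-bound factor that acts on secretory and collagen genes, at 447 CPM against 98.7, a ratio of 4.53 (3.93 to 5.24). Mkx was below the limit on abundance, with 363 UMIs against 19 and 129 against 8.30 CPM. The 4 lower ones were Foxp1, Klf2, Klf4 and Osr2. Foxp1, Klf4 and Osr2, with 204, 305 and 6 UMIs in the members, passed that limit only through the Scx-low fibroblasts. The count and median of these 6 factors are thus a description. The odd-skipped factor Osr2 was at 2.14 against 166 CPM, and the Krüppel-like factors Klf2 and Klf4 at 333 against 993 and 109 against 524 CPM. Egr1, an immediate early factor that is also linked to tendon collagen, was at 212 against 305 CPM, within 2-fold.

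Collagen genes split into opposite sets. Of the 9 fibrillar collagen genes tested, Col3a1 had been used to choose the Scx-low fibroblasts and Col2a1 was capped by the gate. Of the other 7, 4 were at least 2-fold higher, 3 were at least 2-fold lower and 0 were within 2-fold. The higher ones were those of type I and XI collagen. Col11a2 was at 1800 CPM against 37.1, a ratio of 48.5 (39.2 to 60.8), Col11a1 at 921 against 65.9, Col1a1 at 72149 against 10400 and Col1a2 at 45151 against 6877. Col2a1, the type II collagen gene that the gate kept under 5 UMIs, was at 570 against 20.5 CPM. The lower ones were the 3 of type V collagen, Col5a1 at 68.1 against 590, Col5a2 at 284 against 750 and Col5a3 at 6.06 against 201. Col5a1 and Col5a3, with 191 and 17 UMIs in the members, passed the abundance limit only through the Scx-low fibroblasts, so the split is a description. Col3a1 (chr1:45311538-45349706), of type III collagen, was at 645 CPM against 9308, as a description. Of the other 9 collagen genes tested 3 were higher, 2 lower and 4 within 2-fold. The higher ones were Col12a1 at 730 against 131 CPM, Col16a1 at 559 against 162 and Col6a3 at 1058 against 410. The lower ones were the basement membrane genes Col4a1, at 51.0 against 264 CPM, and Col4a2. Both, with 143 and 208 UMIs in the members, passed the abundance limit only through the Scx-low fibroblasts, so that count is a description.

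Enzymes and chaperones that process collagen followed the tenocytes in part. Of 18 genes tested 8 were at least 2-fold higher, 1 was lower and 9 were within 2-fold, and the median log2 ratio was 0.94. P4ha1, a catalytic subunit of prolyl 4-hydroxylase, stood at 844 against 121 CPM, a ratio of 6.98 (6.16 to 7.93), and Crtap, a partner of prolyl 3-hydroxylase, at 415 against 134. The lysyl oxidases that cross-link collagen went different ways, with Lox at 402 against 107 CPM and Loxl2 at 409 against 117, while Loxl1, known for its role with elastin, was at 58.1 against 407. The general secretory genes moved less than these collagen genes, with a median log2 ratio of 0.09 beside 0.94. Over all 1325 genes tested 8% were at least 2-fold higher and 18.3% lower. Of 19 endoplasmic reticulum and secretion genes 16 were within 2-fold and 3 higher, Creb3l1, the translocon subunit Ssr4 (1258 against 558 CPM) and the retrieval receptor Kdelr2 (577 against 235 CPM).

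Small leucine-rich proteoglycans were again divided, with 2 of 7 higher, 2 lower and 3 within 2-fold when Lum, which chose the fibroblasts, is left out. Besides Fmod and Kera, the chondroadherin gene Chad was at 130 against 7.42 CPM but below the abundance limit. Lumican (Lum) was at 113 against 1813 CPM, asporin (Aspn) at 52.1 against 915 and Prelp at 24.6 against 313. Aspn, with 146 UMIs in the members, and Prelp passed the abundance limit only through the Scx-low fibroblasts, so that count is a description. Dcn, at 13325 against 8030, and biglycan (Bgn), at 2273 against 2081, were within 2-fold. Of 15 matricellular genes 8 were higher, 4 lower and 3 within 2-fold. The higher ones included Cilp2 at 642 against 35.8 CPM, Comp, the cartilage oligomeric matrix protein of tendon and cartilage, at 595 against 93.0, and Wisp1 at 312 against 57.6. The lower ones were Fn1, Nov, Postn and Tnxb, with Postn at 203 against 1098 CPM and Tnxb, whose loss causes lax tissue, at 19.96 against 444. At this level Tnxb passed the abundance limit only through the Scx-low fibroblasts, so the matricellular count is a description too.

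The genes with the largest ratios in the tenocytes outside the rule included several with a signal in only some members. Ucma, a secreted protein known from cartilage, was at 138 CPM, with 388 UMIs against 2 in all Scx-low fibroblasts, a ratio of 158 (43.6 to 1313). Car9 (chr4:43506966-43513729), a carbonic anhydrase known as a target of hypoxia, was at 276 against 2.62 CPM, a ratio of 105 (48.1 to 288). The other genes of hypoxia and glycolysis were nearer to each other. Of 8 tested 3 were at least 2-fold higher, Car9, P4ha1 and the pyruvate kinase gene Pkm at 632 against 306 CPM, and Ldha, the lactate dehydrogenase gene, was at 821 against 714. Wif1 (chr10:121033960-121100650), which binds and inhibits Wnt ligands, was at 707 against 22.7 CPM. The semaphorin gene Sema3b was at 509 against 27.5 CPM and Angptl7 (chr4:148495183-148500460), a secreted angiopoietin-like protein, at 263 against 10.04. Car9 was found in 46.4% of members and Angptl7 in 23.2%, and after thinning in 33.1% and 19.7%, beside 2.68% and 0 of 112 immune cells.

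Genes of the TGF-beta pathway were mostly rare. Only 3 of the 26 listed reached a mean of 0.5 UMI in either set, and Bambi, a decoy receptor that dampens TGF-beta and BMP signals, was the 1 that was at least 2-fold higher, at 223 against 42.3 CPM. The ligand gene Tgfb3 had 271 UMIs, 96.6 CPM, against 51.5, and the receptor gene Tgfbr2 (chr9:116084293-116175360) 86 UMIs, 30.7 CPM, against 79.0. Of 6 BMP and GDF genes tested 3 were lower and 0 higher. Nbl1, a secreted BMP antagonist, was at 115 against 980 CPM, follistatin (Fst), which binds activins and BMPs, at 6.77 against 145, and the BMP target Id3 at 343 against 820. Nbl1 and Fst, with 322 and 19 UMIs in the members, passed the abundance limit only through the fibroblasts, so that count is a description. The 10 immediate early genes tested were all within 2-fold. Of 5 Wnt pathway genes tested 2 were higher, Wif1 and Dkk3, and 2 lower, Sfrp4 and Dkk2, and the integrin-like gene Itgbl1 was the 1 of 2 integrin genes that was higher.

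Most tested markers of the sheath fibroblasts were lower in the tenocytes. Of 14 peritenon fibroblast markers tested, Lum, Col3a1, Dpt and Mfap5 had been used to choose the Scx-low fibroblasts. Of the other 10, 8 were at least 2-fold lower in the tenocytes, 1 was within 2-fold and 1 was higher. Pi16 was at 12.5 against 871, Ly6a at 37.8 against 1465 and Cd34 at 26.7 against 888 CPM. With 35, 106 and 75 UMIs in the members, these 3 were among the markers that passed the abundance limit only through the fibroblasts. Dlk1, with 74 UMIs, was another, so the count of 8 is a description. Mfap5, a microfibril gene that chose the fibroblasts, was at 59.5 against 3785 CPM. Immune cells of the same library held 57.0 CPM of Mfap5, 12.7 CPM of Ly6a and 23.2 CPM of Cd34. Over all members together, the Mfap5 and Cd34 levels were thus close to those in cells that should lack them, but they differed between the groups of members described below. Thy1 was equal, at 362 against 360 CPM, and Prg4, the joint lubricant lubricin, was at 161 against 63.7.

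**Figure D2:**
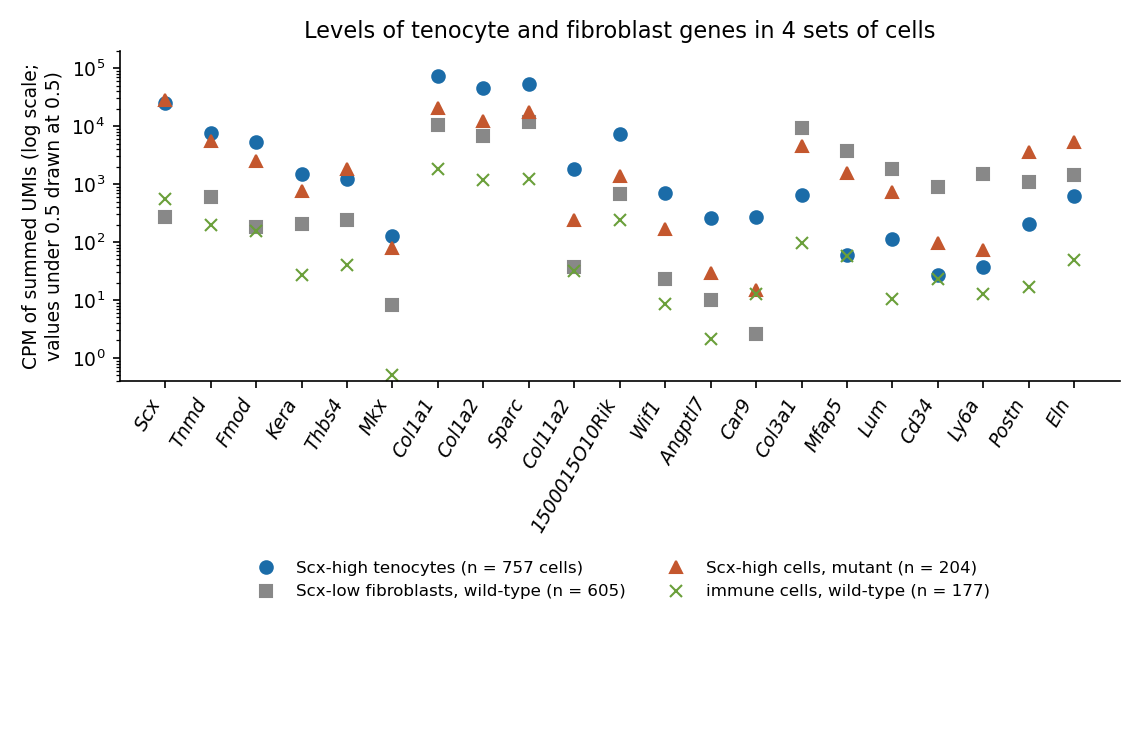
CPM of summed UMIs (y axis, log scale) of 21 genes (x axis) in the Scx-high tenocytes, Scx-low fibroblasts, mutant Scx-high cells and immune cells, 1 point for each set, with values under 0.5 drawn at 0.5. Of these 4 sets the tenocytes lie highest for Col1a1, Col1a2, Col11a2, 1500015O10Rik, Wif1, Angptl7 and Car9, and below the Scx-low fibroblasts for Col3a1, Mfap5, Lum, Cd34, Ly6a and Postn.

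The Col2a1 gate was examined because it removed more Scx-rich cells than the other gates together. The 354 Col2a1-positive cells of the control library, with 5 or more Col2a1 UMIs, any Scx and the same haemoglobin, cycling and immune gates, held at most 15 Col2a1 UMIs with a median of 6, and 349 of them passed the Scx threshold. Across 1153 genes tested, 0 (0%) were at least 2-fold higher in the members, and 1 (0.0867%), Col2a1 itself, was lower, at 570 against 1394 CPM. Col2a1 is the gene that split these sets. The count depended on the settings. There were 1 higher and 1 lower gene without called doublets and again as a mean over cells, 7 higher and 1 lower at an Scx threshold of 15, 8 and 7 against cells with 10 or more Col2a1 UMIs, 18 and 4 when genes averaging 0.1 UMI were counted, and 58 and 19 for members without a Col2a1 UMI. Tnmd was at 7704 against 7262 CPM, a ratio of 1.06 (1.04 to 1.08), Fmod at 5333 against 5607 and Col1a1 at 72149 against 79333. The gate counts UMIs without regard to depth, and the Col2a1-positive cells were deeper, with a median of 4952.5 UMIs. Postn, at 203 against 104 CPM, had the largest ratio in favour of the members, 1.96, and Col3a1 was at 645 against 365 CPM. The 14 chondrocyte markers, Col2a1 included, summed to 895 CPM in the members and 1811 CPM in the Col2a1-positive cells. Acan, the aggrecan gene of cartilage and tendon, was at 228 against 285 CPM, Sox9, the master factor of cartilage, at 13.2 against 13.8, and the matrilin gene Matn1 had 0 UMIs in the members.

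Col2a1 transcript was itself common in the members. Only 123 of them had 0 Col2a1 UMIs, while 141 had 1, 168 had 2, 179 had 3 and 146 had 4. The members without a Col2a1 UMI had 48855 CPM of Col1a1, 916 CPM of Col11a2, 1730 CPM of Col3a1 and 8969 CPM of Tnmd, and those with 4 UMIs had 80294, 1928, 307 and 7488. Depth moved with this order, from a median of 2757 UMIs to 4766. In 112 thinned immune cells Col2a1 was found in 1.79%, and in thinned members in 65.6%.

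Matrix genes were among those that varied most from member to member. After thinning to 2000 UMIs, variance over mean (the Fano factor, which is 1 for counting noise alone and tends to grow with the mean) was computed for 1237 genes that averaged 0.2 UMI or more. Its median was 1.11, and 67 genes had 2 or more. Col1a1 had the highest value, 22.5, followed by Sparc at 14.6, Scx, whose spread the threshold shapes, at 14.6, Crip1, a LIM-domain protein, at 14.05 and Col1a2 at 12.6. Acta2, at 11.7, was found in 31.4% of thinned members and had at most 50 UMIs in a cell. Postn, at 8.39, was found in 13.1% and had at most 25. The S100 genes S100a6 and S100a4 had 8.88 and 6.70, Col3a1 5.41 and Tnmd 4.40.

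Across the 605 thinned members Col1a1 varied with Col1a2 and Col11a2, and against Col3a1. These correlations are descriptions over cells of 1 library that share 1 total, so that an abundant gene leaves fewer UMIs to the others. Spearman's rho of Col1a1 was 0.82 with Col1a2, 0.47 with Sparc, 0.47 with Col11a2 and 0.41 with Fmod, but -0.42 with Col3a1 and -0.31 with Postn. Col3a1 in turn went with Col5a1 (rho 0.39), Itih5 (0.37) and S100a6 (0.35). With Col1a1, Col1a2, Sparc and Scx taken out before thinning to 1500 UMIs, the same values over 619 cells were 0.34, 0.28 and 0.31. Kera and Dcn, the proteoglycan genes, had 0.35, and 0.33 in that setting.

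The 4 markers that the rule did not use had weak correlations with each other, from -0.06 to 0.13 over 6 pairs, and from 0.03 to 0.17 with the 4 abundant genes taken out, where Kera and Thbs4 went from -0.06 to 0.06. Correlations with Scx are shaped by its threshold and are given as values, -0.08 for Tnmd, 0.11 for Fmod, 0.03 for Kera and -0.06 for Thbs4. Over the gated cells of the library Tnmd was at 4.09 per 10,000 UMIs in cells under 1 Scx per 10,000 and at 33.5 in those at 10 to 20. It was at 84.1 in cells at 20 to 30, and between 66.2 and 89.1 in every bin above the threshold. Within the members, the genes that followed Scx best were Tpm1, a tropomyosin, at 0.34, Angptl7 at 0.33 and the microfibril gene Mfap4 at 0.29, and those that ran against it S100a6 at -0.28 and Crip1 at -0.27. For Tnmd the best were Bgn at 0.25 and Spon2 at 0.20, and Col1a2 ran against it at -0.26. For Thbs4 they were S100a4 at 0.22 and Fxyd5 at 0.22, and for Car9 Pdgfrl at 0.19. Most of these values are weak and come from sparse counts.

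K-means with 3 groups, run on the 1000 most variable genes without those of the rule, split the members into 509, 127 and 121 cells. The groups were made from the same genes that describe them, so they are given as a description without a test or a cell type name. The largest group led with Ucma, Cd24a, Pcolce2, Nppc, Bambi, Angptl7 and Mfap4. Mfap4 was at 5464 CPM in it, 1411 in the second and 3744 in the third group. Nppc encodes C-type natriuretic peptide, and Pcolce2 a relative of the collagen processing enhancer Pcolce. Median depth was 4199 UMIs in the largest and 3923 in the second group.

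The second group of 127 cells, rich in Col3a1, led with Itih5, Ecm1, Chodl, Cilp, Lgals3, Aspn, Capg and Fxyd5. Its Col3a1 level was 1959 CPM against 314 in the largest group, its Col1a1 level 41305 against 74590, and its Postn level 719 against 92.8. Tnmd was at 9487 CPM in it against 7400, Thbs4 at 1915 against 1003 and Fmod at 3344 against 5555. Angptl7 had 0 UMIs in the 127 cells and 657 in the largest group. S100a4 was at 1817 against 200 CPM and Prg4 at 508 against 70.4. Cd34 was at 102 against 9.99 CPM and Mfap5 at 138 against 42.3, beside 23.2 and 57.0 in immune cells. Of the sheath fibroblast markers, Ly6a was at 140 CPM against 15.7 and 1465 in the Scx-low fibroblasts, and Lum at 366 against 56.6 and 1813, while Prg4 at 508 CPM was above the 63.7 CPM of the Scx-low fibroblasts. Of the 40 members with Scx between 30 and 60 per 10,000, 31 were in it, as were 63 of the 123 members without Col2a1. Of the 10 members that Scrublet called as doublets, 6 were in it. Their part in the result was not tested. In cells thinned to 2000 UMIs before clustering, the group with most Col3a1 held 58 of 605 cells, of which 56 were among the 109 cells of the second group at this depth.

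The third group of 121 cells was shallow, with a median of 1559 UMIs and 694 genes, and had 1.25% mitochondrial UMIs against 0.457% in the largest group. Its leading genes were the matrix genes Ltbp3, Col15a1, Col11a2, Col16a1, Col2a1, Thbs3, Hspg2 and Comp. Col1a1 was at 122733 CPM and Col11a2 at 4035 CPM in it, against 1902 in the largest group, while Tnmd was at 6465. The part of depth in this group was not tested.

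**Figure D3:**
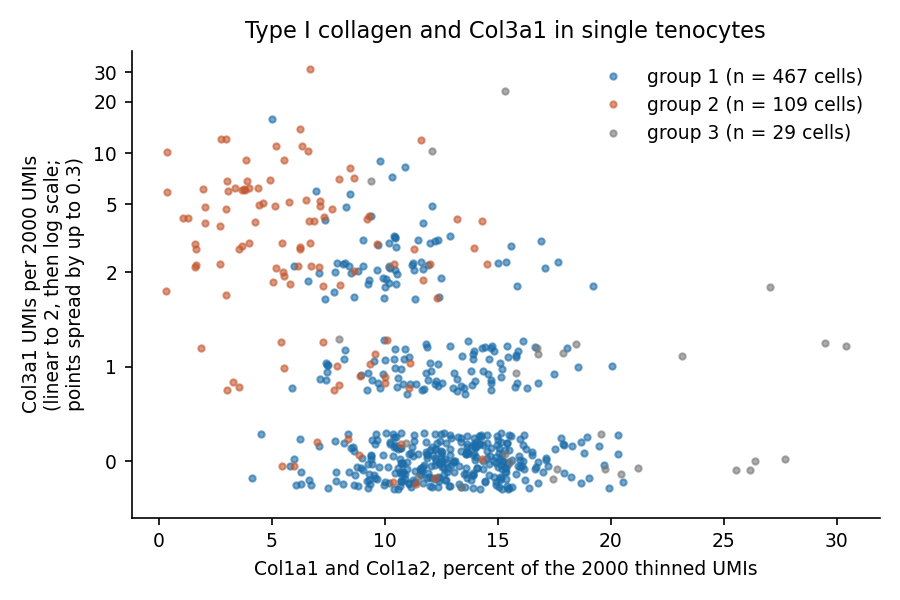
Percent of the 2000 thinned UMIs on Col1a1 and Col1a2 (x axis) and Col3a1 UMIs per 2000 (y axis, linear to 2 and log above) in 605 single members, coloured by K-means group. The second group, with a median of 6.25% type I collagen and 3 Col3a1 UMIs, lies up and left of the largest group, with a median of 12.35% and 0 Col3a1 UMIs.

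Genes of limb identity and sex were looked at because limbs and pups were pooled. Tbx4 or Pitx1, genes of hindlimb identity, were found in 121 members (16.0%, 13.4 to 18.8) and Tbx5, of forelimb identity, in 4 (0.528%), and 0 cells had both. Pitx1 stood at 51.7 CPM and Tbx5 at 1.43 CPM, so most members can be given to neither limb at this depth. Xist, the noncoding RNA of the inactive X chromosome, had 1 UMI in the whole control library and 0 in the mutant library. A Y-linked gene among Ddx3y, Eif2s3y, Uty and Kdm5d was found in 178 members (23.5%, 20.5 to 26.7) and in 68 of 204 Scx-high cells of the mutant library (33.3%, 26.9 to 40.3).

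The same rule applied to the mutant library found 204 of 2592 cells, 7.87% (6.86 to 8.97), against 32.0% in the control library. These Scx-high cells of the mutant library were set beside the members to see how cells past the same Scx threshold differed between the libraries. Their median depth was 3929 UMIs. Tgfbr2, the targeted gene, had 86 UMIs in the members and 43 in the mutant Scx-high cells, 30.7 against 49.5 CPM. A 3′ tag reads the end of the transcript and was not shown to lie in the deleted part, so this does not check the deletion. Scx was at 25446 against 28692 CPM, which is a description since the rule used it.

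Among 1334 genes tested, 61 (4.57%) were at least 2-fold higher in the Scx-high tenocytes of the control library and 145 (10.9%) were lower by 2-fold or more. The log2 ratio of the median gene was -0.27. Omitting the 20 top genes from the total gave 93 and 117, and centring on the median gene 101 and 109. Tnmd was at 7704 against 5437 CPM, a ratio of 1.42 (1.37 to 1.46), Kera at 1509 against 769, a ratio of 1.96 (1.81 to 2.13), and Fmod at 5333 against 2467, a ratio of 2.16 (2.07 to 2.26). Thbs4 went the other way, at 1225 against 1824 CPM. In single cells the median of Kera was 12.5 per 10,000 UMIs in the members and 1.14 in the mutant Scx-high cells, of which 51.0% had a UMI, against 91.4% of the members. At 2000 UMIs per cell the shares were 86.9% and 42.5%.

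Type I collagen carried the largest difference in amount. Col1a1 was at 72149 against 20924 CPM, a ratio of 3.45 (3.40 to 3.50), Col1a2 at 45151 against 12343 and Sparc at 54160 against 17772. In single cells type I collagen took a median of 12.04% of UMIs in the members and 3.22% in the mutant Scx-high cells, whose highest cell had 13.2%. Of the 7 fibrillar collagen genes tested besides Col2a1, the 4 of types I and XI were at least 2-fold higher and Col3a1, Col5a1 and Col5a2 lower. Col11a2 was at 1800 against 240 CPM and Col3a1 at 645 against 4502. Of 20 genes for collagen synthesis and processing 6 were higher, among them P4ha1 at 844 against 128 CPM, Pcolce2 at 375 against 71.4 and Crtap at 415 against 138, and 3 were lower, among them Plod2, a lysyl hydroxylase, at 53.1 against 296 and Loxl1 at 58.1 against 383. Creb3l1 was at 447 against 152 CPM.

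Several other genes of the tenocytes were far lower in the mutant Scx-high cells. Crabp1, a retinoic acid binding protein, was at 480 against 24.2 CPM, a ratio of 19.8 (12.9 to 32.1), and Car9 at 276 against 14.97, a ratio of 18.4 (10.7 to 34.7). Cpz, a carboxypeptidase, was at 636 against 65.6 CPM, Angptl7 at 263 against 28.8, Wif1 at 707 against 169 and 1500015O10Rik at 7227 against 1380. Of the 25 tenocyte genes that the study names, 23 remain without Scx and Col2a1, of which 16 were at least 2-fold higher, 1, C1qtnf3, was lower, at 754 against 3048 CPM, and 6 were within 2-fold. That list was chosen on these libraries, so its count is not independent evidence.

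The genes higher in the mutant Scx-high cells included other matrix genes. Of 15 matricellular genes tested 5 were lower in the members, 2 were higher and 8 were within 2-fold. Postn was at 203 CPM in the members and 3557 in the mutant Scx-high cells, 17.5-fold higher (16.0 to 19.2) there, fibronectin (Fn1) at 515 against 3154, elastin (Eln) at 625 against 5281, Aspn at 52.1 against 846, and Tagln, an actin-binding protein of smooth muscle, at 89.5 against 1245. Markers of other cell types moved with this comparison. The 9 pericyte and smooth muscle markers summed to 558 CPM in the members and 2346 in the mutant Scx-high cells, with Acta2 at 380 against 970, and the 8 osteoblast markers to 8.56 against 710 CPM, nearly all of it Spp1, osteopontin, at 7.13 against 709, while Ibsp had 0 UMIs in both. Their part in the result was not tested. Of 5 metalloproteinase and inhibitor genes tested 4 were lower in the members, with Mmp2 at 245 against 593 CPM and Timp1 at 473 against 1158. Of 8 TGF-beta pathway genes 3 were lower in the members, 1 was higher and 4 were within 2-fold. The latent TGF-beta binding protein gene Ltbp2 had 2 UMIs in the members against 139, 224-fold higher (61.0 to 1872) in the mutant Scx-high cells, Pmepa1, known as a target of the pathway, was at 46.0 against 370, and Bambi was at 223 against 65.6. Tgfb3 was at 96.6 against 180 CPM. Ltbp2 and Pmepa1, with 2 and 129 UMIs in the members, passed the abundance limit only through the mutant Scx-high cells, so the pathway count is a description. Of 9 peritenon markers tested 7 were lower in the members, with Mfap5 at 59.5 against 1529 CPM, and 2 were higher, Thy1 at 362 against 143 and Prg4 at 161 against 73.7.

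**Figure D4:**
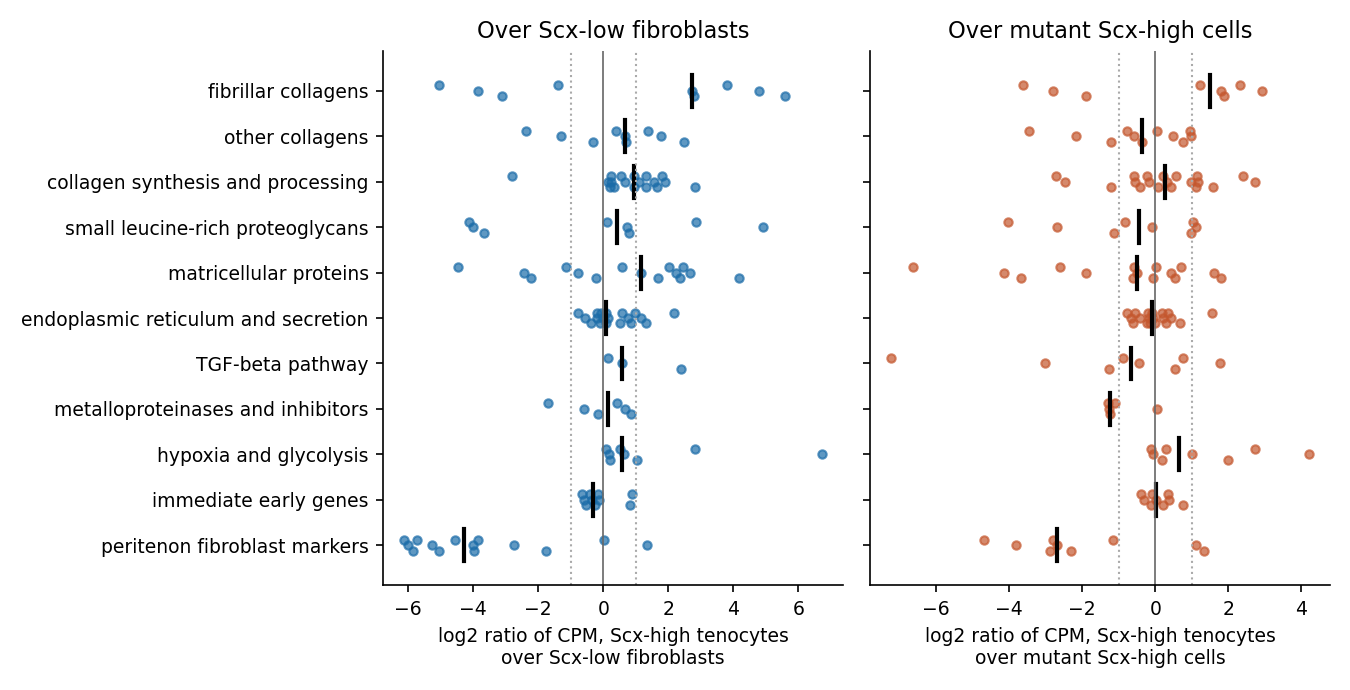
Log2 ratio of CPM (x axis) of the tested genes of 11 lists (y axis), 1 point for each gene and a black bar at the median, for Scx-high tenocytes over Scx-low fibroblasts (left) and over mutant Scx-high cells (right). Dotted lines mark 2-fold, and the fibrillar collagens lie on both sides with medians of 2.71 and 1.504, while the peritenon markers have medians of -4.28 and -2.69, all with the genes that chose the cells included.

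Some of these differences were not particular to Scx-high cells. Myog, the myogenic factor, had 0 UMIs in the members and 325 in the mutant Scx-high cells, at least 350-fold higher there with a floor of 3 counts over the members, all in 10 cells. Those 10 cells had 0 Tnmd and 0 Kera UMIs, 817 CPM of Col1a1 and 3739 CPM of the muscle actin Actc1, beside 21990 CPM of Scx. Without them 56 genes were higher and 139 lower in the members. Ppia, Rps6, Myl6 and Rpl9-ps6 were singled out after their values were seen. Some common genes differed between the libraries in all 3 sets of cells compared. Gapdh was at 191 against 48.4 CPM in Scx-high cells, 181 against 37.5 in Scx-low fibroblasts and 361 against 49.9 in immune cells, and Ppia, Rps6 and Myl6 were lower in the mutant library in all 3 sets too, while Malat1 had a ratio of 0.993 in Scx-low fibroblasts and 0.982 in immune cells, Ldha ratios of 0.893 to 0.959 and Tpi1 of 1.005 to 1.35. Of the 206 genes past 2-fold, 16 of the 61 higher and 54 of the 145 lower were also past 2-fold the same way between the immune cells of the libraries, among them Eln and Postn. Of all 1334 genes tested, 1213 were left without genes past 2-fold in immune cells in the direction of the Scx-high cells. Genes that went the opposite way in immune cells stayed in. The part of such shifts in the other differences was not tested, nor was the part of free RNA in the shifts. Col1a1 in Scx-low fibroblasts was at 10400 CPM in the control and 11282 in the mutant library, so its difference between the libraries was not seen there, but in immune cells it was at 1821 against 898, a ratio of 2.03 (1.78 to 2.31) in the same direction as in Scx-high cells. Crabp1 went the opposite way in Scx-low fibroblasts, at 54.6 against 262 CPM.

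**Figure D5:**
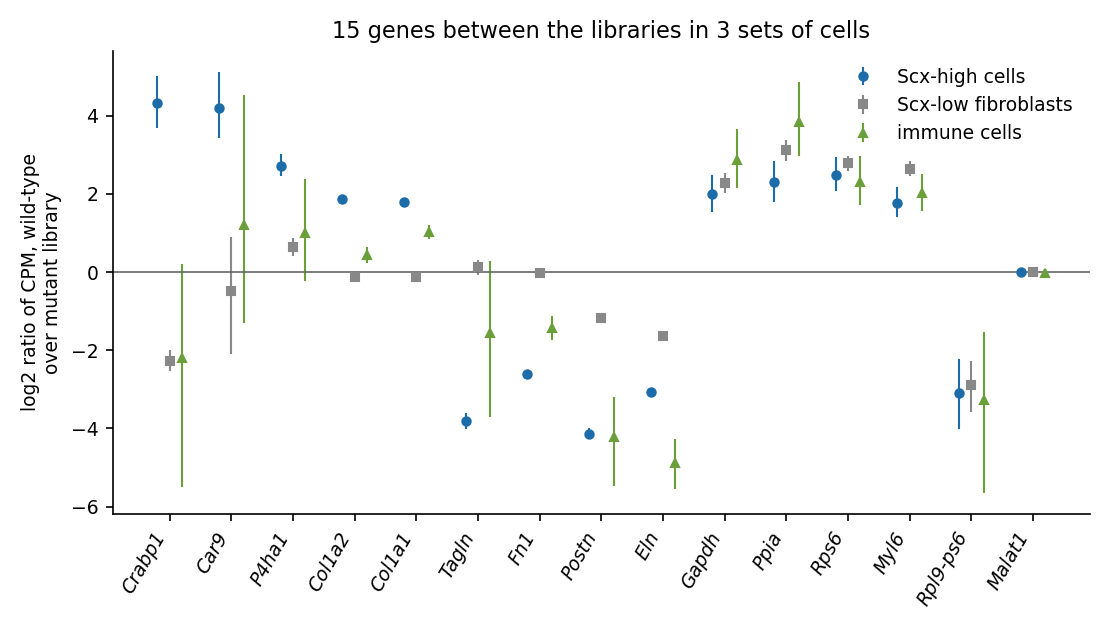
Log2 ratio of CPM, wild-type over mutant library (y axis), of 15 genes (x axis) in Scx-high cells, Scx-low fibroblasts and immune cells, with exact 95% intervals for counting error. Col1a1, Col1a2, Car9 and Crabp1 lie high in Scx-high cells, while Gapdh, Ppia, Rps6 and Myl6 lie above 0 and Rpl9-ps6 below 0 in all 3 sets.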

How the data were processed

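Per the labels and the study's methods, tendons of P7 pups were digested, released cells were captured with a 10x Genomics 3′ kit, and the authors made the deposited UMI counts with Cell Ranger (version 1.2.0 in the submitters' processing notes, and another version in the methods) on mm10. These deposited counts cover 27998 genes and were not normalized. The 2364 cells of the control library gave 9451606 UMIs (median 3866.5) and the 2592 cells of the mutant library 8250248 (median 2828). All deposited cells were used.

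For each set of cells, UMIs were added up and scaled to CPM. Ratios have exact conditional and shares exact Clopper-Pearson 95% intervals, for counting error only. For log2 ratios, ranks and calls past 2-fold, a count under 3 in a set was raised to a floor of 3. Ratios printed with an interval use the plain counts, and a ratio over a count of 0 uses the floor. Genes were called past a fold of 2 among those that averaged 0.5 UMI or more in the cells of either set. Cells were thinned without replacement (seed 1). K-means used 10 principal components, 50 starts and k = 3. Immune cells had 5 or more UMIs of the immune genes and Scx under 30 per 10,000. Doublets called by Scrublet at an expected rate of 2% (26 and 8 cells) stayed in. Ratios, intervals, thinning and Fano factors were tested on simulated data. Python 3.11.15, NumPy 2.4.6, SciPy 1.17.1, scikit-learn 1.9.0 and Scanpy 1.11.5 were used. Promoter sequences of 3 markers are from RefSeq, and that of Kera was left out because its window overlaps another annotated gene.

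The members and gene lists were chosen with earlier results of these data known. Named genes are those of the lists, the 15 most abundant, the 10 with the largest ratio each way, the 15 with the largest Fano factor, the best correlated and the 8 leading genes of each group, without ribosomal, mitochondrial, Gm and -ps genes. Eln, Ppia, Rps6, Myl6 and Rpl9-ps6 beyond that rule were chosen after their values were seen. In the gene lists, 1 symbol that names 2 rows of the table was left out.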

Additional observations from a re-analysis of the deposited data

Results flagged for a closer look

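Immune cells, which served only as a background for the Scx-high cells, differed between the libraries in some genes that also differed between the Scx-high cells. Eln was 29.4-fold higher (19.4 to 46.8) in immune cells of the mutant library than of the wild-type library, at 1427 against 48.5 CPM, and Postn 18.7-fold higher, at 316 against 16.9 CPM. Rpl9-ps6, a ribosomal pseudogene, was 9.63-fold higher, with 22 UMIs against 3. These 3 signals were above the level of the control library. Eln and Postn were also higher in Scx-low fibroblasts of the mutant library, at 4539 against 1462 CPM and 2489 against 1098 CPM. Those fibroblasts were 1721 of 2592 cells there and 605 of 2364 in the control library. Batch and genotype cannot be told apart in the immune cells. The part of free RNA in this shift and the part of this shift in the Scx-high cells were not tested.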

How the results depend on the processing

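No paired analysis was possible because each genotype has 1 library. With Scx of at least 15 per 10,000 the rule found 816 cells, with 11.8% of UMIs on fibrillar collagens and 8 genes past 2-fold against Col2a1-positive cells. At a threshold of 60 the fibrillar share was 12.4%, with a filter on cells (500 genes or more, mitochondrial share under 10%) 12.1%, and without called doublets 12.3%, with 2 genes against Col2a1-positive cells. Members without a Col2a1 UMI numbered 123, with a fibrillar share of 8.20%, a median log2 ratio of the 4 markers over mutant Scx-high cells of 1.06 and 77 genes past 2-fold against Col2a1-positive cells. As a mean over cells the fibrillar share was 12.7%, the median marker ratio 2.94 over Scx-low fibroblasts, beside 3.27, and 0.53 over mutant Scx-high cells, beside 0.74, and 2 genes differed from Col2a1-positive cells. Without the 20 most abundant genes in the total the marker medians were 3.59 and 0.96, with 165 genes higher than in Scx-low fibroblasts, and centred on the median gene 3.59 and 1.004, with 164. With Scx-low fibroblasts under 5 per 10,000 the median was 3.70. Counting genes that averaged 0.1 UMI or more, 248 genes were higher and 970 lower than in Scx-low fibroblasts, 803 differed from mutant Scx-high cells, 176 higher and 627 lower, and 22 from Col2a1-positive cells, and with 10 or more Col2a1 UMIs 15 did. Leaving out genes past 2-fold in immune cells in the direction of the Scx-high cells left 136 genes between the libraries. This setting was chosen after seeing the data. The group with most Col3a1 held 67 cells at k = 4, of which 66 were among the 127, and 58 after thinning, added after seeing the data. The cause of these moves was not tested. The marker medians kept their direction under these settings, while the genes past 2-fold against Col2a1-positive cells went from 0 higher and 1 lower to 58 higher and 19 lower in members without a Col2a1 UMI. Depth limits genes under 0.5 UMI per cell, which were not counted.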
